A study of Mus musculus with 6 samples.

Results

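The genes described here are inflammatory cytokines, Toll-like receptors (TLRs), cytokine receptors and members of the NF-κB pathway in the mouse aorta. They were taken from a list of 36 genes, and a gene was measured where a probe set names it and no other gene. That held for 33 of the 36 among 19752 genes measured in the series, and Il1r1, Il1rl1 and Nfkb1 were not analysed here. Where several probe sets name a gene, the one with the highest mean level was kept. Aortas came from 20-week-old mice on a C57BL/6 background under normal housing, from 3 double-knockout mice (DKO, apoe-/- adora1-/-) and 3 mice that carry the Apoe deletion only (ApoE-KO, apoe-/-). Adora1 is the gene of the adenosine A1 receptor, which couples to inhibitory G proteins. All 6 therefore lack Apoe, the apolipoprotein whose loss raises plasma cholesterol and leads to atherosclerosis, and no wild-type or Adora1-only array was among them. Each array read whole-tissue RNA, and replicates were numbered 1 to 3 in both groups. The series text calls the control mice Adora1 knockouts, but every label of those samples gives the Apoe genotype, and this was used. The level of Adora1 is not analysed here, so it did not check the genotype labels.

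Inflammatory signals in the artery wall begin when receptors such as the TLRs, the interleukin-1 receptor or the TNF receptors are engaged. Adaptors such as MyD88 then pass the signal to a kinase complex that removes the inhibitor IκBα, and NF-κB dimers enter the nucleus and switch on cytokines, enzymes and their own inhibitors. A parallel route runs through gp130, the receptor chain shared by interleukin-6, LIF and oncostatin M, to STAT3 and its feedback inhibitor SOCS3. In atherosclerosis these routes are known from macrophages, endothelium and smooth muscle of the vessel wall. Bulk tissue RNA was measured, so fewer cells of a type and less RNA per cell cannot be told apart in any value given here.

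The windows from 250 bases before to 50 bases after the gene start (RefSeq, build GRCm38.p6) were searched for the NF-κB consensus motif on both strands and for TTCNNNGAA, the palindrome bound by STAT factors, which reads the same on both strands. Of the 33 measured genes 28 had such windows, 36 windows in all. The NF-κB consensus stood in windows of 7 of the 28 genes (Csf1, Il6, Nfkb2, Nfkbia, Nlrp3, Tlr2 and Tnfaip3), a share of 25%, where 5.14% of all 27025 genes with a window hold it. TTCNNNGAA stood in windows of 6 of the 28 (Ifng, Myd88, Nfkb2, Socs3, Tnfrsf1a and Tnfrsf1b), or 21.4%, where 9.55% of all genes hold it. A match of letters is a description and not a site of binding. Shown are 4 genes among the 8 with the smallest unadjusted p, chosen because their window holds a match, with the matches in capitals. The Il6 window (chr5:30012864-30013163, plus strand) has the NF-κB match GGGATTTTCC starting 44 bases before the gene start. The Tlr2 window (chr3:83841559-83841858, minus strand) has overlapping NF-κB matches starting 173 and 172 bases before the start and another one starting 8 bases before it. The Socs3 window (chr11:117969317-117969616, minus strand) and the Tnfrsf1a window (chr6:125349473-125349772, plus strand) hold TTCTTAGAA and TTCCGTGAA, starting 154 and 244 bases before the start.
Il6: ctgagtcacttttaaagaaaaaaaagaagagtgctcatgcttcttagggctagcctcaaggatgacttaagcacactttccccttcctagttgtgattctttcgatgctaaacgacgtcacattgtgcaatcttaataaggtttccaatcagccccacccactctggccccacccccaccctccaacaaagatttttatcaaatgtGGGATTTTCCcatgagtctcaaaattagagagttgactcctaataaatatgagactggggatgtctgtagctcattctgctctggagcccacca
Tlr2: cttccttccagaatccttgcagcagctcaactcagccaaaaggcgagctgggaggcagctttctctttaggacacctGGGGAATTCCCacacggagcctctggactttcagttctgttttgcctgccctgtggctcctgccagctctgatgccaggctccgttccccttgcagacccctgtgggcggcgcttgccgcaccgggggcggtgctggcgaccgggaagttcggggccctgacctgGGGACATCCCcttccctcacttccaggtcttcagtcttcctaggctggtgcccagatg
Socs3: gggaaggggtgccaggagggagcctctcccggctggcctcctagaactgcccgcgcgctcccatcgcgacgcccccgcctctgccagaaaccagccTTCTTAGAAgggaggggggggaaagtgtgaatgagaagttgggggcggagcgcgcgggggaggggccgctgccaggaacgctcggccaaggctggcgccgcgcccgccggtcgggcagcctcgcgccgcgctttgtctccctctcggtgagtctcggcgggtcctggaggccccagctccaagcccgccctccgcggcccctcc
Tnfrsf1a: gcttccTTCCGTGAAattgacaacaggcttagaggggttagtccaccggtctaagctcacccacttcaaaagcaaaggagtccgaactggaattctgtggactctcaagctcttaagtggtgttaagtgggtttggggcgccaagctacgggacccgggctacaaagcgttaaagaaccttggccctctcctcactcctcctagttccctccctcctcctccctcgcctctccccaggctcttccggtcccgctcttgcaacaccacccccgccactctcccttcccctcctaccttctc

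The comparison asked whether these genes differ in the aorta once Adora1 is deleted on top of Apoe. None of the 33 passed the test: 0 had an adjusted p under 0.05, against 0% of all 25254 probe sets (limma, adjusted p of the 33 from 0.861 to 0.994). With arrays paired by replicate number 0 of the 33 passed either, against 0.174% of all probe sets (adjusted p from 0.0574, for Il33, to 0.973). No label ties same-numbered arrays together, and the pairing was chosen from these same values. At an unadjusted p under 0.05 there were 3 of the 33, Il33, Tnfrsf1a and Socs3, or 9.09% against 5.62% of all probe sets. In the paired fit there were 5, those 3 with Osmr and Tlr2, or 15.2% against 16.2%. Means were lower in DKO for 21 of the 33, or 63.6% against 50.7% of all probe sets. The median difference, DKO minus ApoE-KO, was -0.05 on the log2 scale, beside -0.0024 over all probe sets. The 95% interval of the difference lay within 0.5 either way for 25 of the 33 genes and within 1 for 31 of them. Il33 and Il6 were the exceptions at 1.

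**Figure D1:**
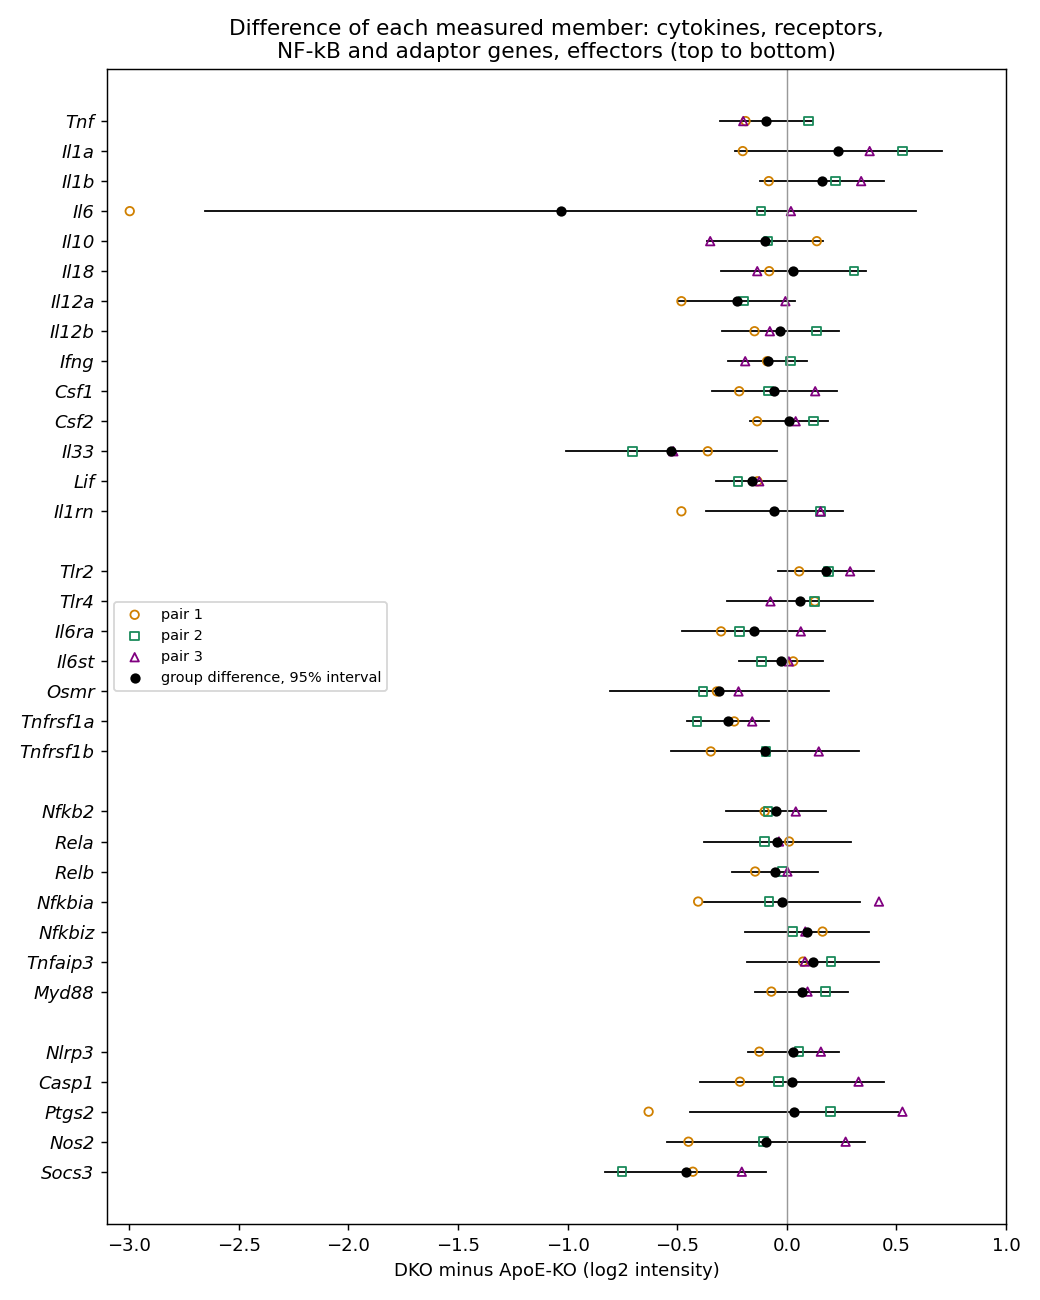
Difference of each of the 33 measured genes on the x axis (DKO minus ApoE-KO, log2 intensity), grouped down the page as cytokines, receptors, NF-κB and adaptor genes, and effectors. Filled points are group differences with their 95% limma interval and open symbols are the 3 pairs of same-numbered arrays; only Il33, Tnfrsf1a and Socs3 have intervals that leave out 0, and pair 1 of Il6 is the point farthest from 0.

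Il33, an alarmin cytokine of the interleukin-1 family that is released from damaged stromal and barrier cells, had the smallest p of the 33 in the paired fit. Its level was 9.41, 9.84 and 9.69 (log2 intensity) in DKO replicates 1 to 3, against 9.77, 10.55 and 10.21 in ApoE-KO replicates 1 to 3. The groups overlapped, because DKO replicate 2 stood just above ApoE-KO replicate 1, yet each DKO array was below the ApoE-KO array of its own number, by differences of -0.36, -0.70 and -0.52. The group difference was -0.53 (95% interval -1.01 to -0.05, limma, adjusted p = 0.861), and in the paired fit the interval ran from -0.71 to -0.34 (adjusted p = 0.0574). Il33 was the 1 gene of the 33 that passed under any setting tried, without both replicate 1 arrays in the paired fit (limma, adjusted p = 0.0129), where 1.64% of all probe sets passed. In the paired fit without both replicate 2 arrays its adjusted p was 0.387, and in an ordinary linear model with the same pairing it was 0.451, and in each of these 0 probe sets passed. The white adipose marker list (10 of 11 genes measured) was also lower in DKO within each number. Its mean level was 9.59, 10.42 and 9.97 in DKO against 10.13, 10.83 and 10.53 in ApoE-KO, with replicates in the order 1, 3, 2 from low to high in both groups, as for Il33. Of its 10 genes 9 were lower in DKO, and 3 passed in the paired fit, where 0.174% of all probe sets passed. The mast cell markers (8 of 8 measured) kept that order in both groups too, with means of 6.75, 7.03 and 6.95 in DKO against 6.98, 7.23 and 7.20 in ApoE-KO, and 8 of 8 were lower in DKO. Macrophage markers shared the order in both groups, with 8.90, 9.75 and 9.47 in DKO against 9.35, 9.50 and 9.36 in ApoE-KO, but were lower in DKO in pair 1 alone. Smooth muscle markers had the reverse order, 2, 3, 1, in both groups. Adventitial fibroblast markers (8 of 9 measured) had the order 1, 3, 2 in DKO but not in ApoE-KO. Their means were 11.81, 12.15 and 12.04 in DKO, against 11.93, 12.21 and 11.90 in ApoE-KO, so higher in DKO in pair 3 alone. Endothelium markers (9 of 9 measured) were ordered 1, 2, 3 in both groups and were higher in DKO in pair 1 alone. Nerve markers (6 of 8 measured) were lower in DKO for 6 of 6, with another order of replicates, 1, 2, 3, in both groups. Their list means were 6.42, 6.44 and 6.69 in DKO, against 6.65, 6.73 and 7.69 in ApoE-KO, where replicate 3 stood apart. Mesothelium markers went the other way, higher in DKO for 8 of 8, with list means from 8.04 to 8.48 in DKO and from 7.49 to 7.87 in ApoE-KO. Of the 8, 2 passed in the paired fit. The part of these cell types in the Il33 values was not tested.

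The classical proinflammatory cytokines showed no common direction. Tnf, the founding TNF cytokine, averaged 6.42 ± 0.12 in DKO and 6.52 ± 0.09 in ApoE-KO (SD, n = 3 each), a difference of -0.10. Il1b, the inflammasome-processed interleukin-1β, averaged 7.04 ± 0.23 and 6.88 ± 0.08 in DKO and ApoE-KO, a difference of 0.16 with a 95% interval from -0.12 to 0.44. Il1a, the other interleukin-1 agonist, had one of the wider ranges within a group, with 5.26, 6.11 and 5.87 in DKO against 5.46, 5.58 and 5.50 in ApoE-KO. DKO replicate 1 was the lowest of the 6 arrays for Il1a and the other DKO arrays were the highest, so the pairs stood at -0.20, 0.53 and 0.38. For Il1rn, the natural interleukin-1 receptor antagonist, the pairs stood at -0.48, 0.15 and 0.15. Il18, another inflammasome substrate, differed by 0.03.

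Il6, which signals through gp130, had the largest difference and the widest spread of the 33. Its level was 3.37, 3.90 and 3.43 in DKO, against 6.36, 4.02 and 3.41 in ApoE-KO. The mean over the 6 arrays stood at percentile 2.07 of all probe sets, so near the low end of the scale. A single array, ApoE-KO replicate 1, stood 2.34 above the next highest, and the other 5 lay between 3.37 and 4.02. The difference of -1.03 (95% interval -2.66 to 0.59, limma, adjusted p = 0.872) became -0.15 without ApoE-KO replicate 1. That array was also the highest for Nos2, Ptgs2, Il12a and Il1rn, and in all for 10 of the 33 genes, with no such count made over all probe sets.

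Lif, a gp130 cytokine, was one of 3 genes whose groups did not overlap. It read 7.13, 7.00 and 7.08 in DKO, against 7.27, 7.23 and 7.21 in ApoE-KO, a difference of -0.16 (95% interval -0.32 to 0.00095, limma, adjusted p = 0.862). Il12a, which encodes the p35 chain of interleukin-12 and interleukin-35, read 6.76, 6.75 and 7.03 in DKO and 7.24, 6.95 and 7.04 in ApoE-KO. All 3 Il12a pairs were lower in DKO, but the third by -0.0068 alone (difference -0.23, adjusted p = 0.862). Il12b, the p40 chain, differed by -0.03, Ifng, the T and NK cell interferon, by -0.09, and Il10, the anti-inflammatory cytokine, by -0.10. Csf1, the macrophage growth factor, read 10.13, 10.42 and 10.30 in DKO, against 10.35, 10.51 and 10.17 in ApoE-KO. Its groups overlapped throughout, and Csf2, the granulocyte-macrophage factor, differed by 0.0089.

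Of the 15 genes with a mean below the 40th percentile of all probe sets, 12 are cytokines. The deposited table holds no detection calls, so whether these stand above background is unknown. Intensities of different probe sets depend on their probes, and the levels given here do not rank the genes.

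Among the receptors, Tnfrsf1a and Osmr were lower in DKO in all 3 pairs. Tnfrsf1a, the main signalling receptor for TNF, read 10.91, 10.87 and 10.97 in DKO, against 11.15, 11.28 and 11.13 in ApoE-KO. The groups did not overlap, and the difference of -0.27 (95% interval -0.46 to -0.08) had the smallest p of the unpaired fit among these genes (limma, adjusted p = 0.861). Tnfrsf1b, the second TNF receptor, found mainly on immune cells and endothelium, had pairs at -0.35, -0.10 and 0.15. Its 95% interval, from -0.53 to 0.33, contains the Tnfrsf1a difference, and the difference between the receptors was not tested.

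Osmr, Il6ra and Il6st are receptor chains of gp130 signalling, and their 95% intervals overlapped. Osmr, the ligand-specific chain for oncostatin M, read 10.23, 10.85 and 10.69 in DKO, against 10.55, 11.23 and 10.91 in ApoE-KO. Within each number the DKO array was lower, by differences of -0.32, -0.38 and -0.22, while between numbers the arrays spread by 0.61 in DKO and 0.68 in ApoE-KO. White adipose and mast cell markers, as given beside Il33, had the same order of replicates and were likewise lower in DKO within each number. Macrophage markers shared the order alone. The part of these cell types in the Osmr values was not tested. The difference was -0.31 (95% interval -0.81 to 0.19, limma, adjusted p = 0.881), and the paired interval ran from -0.44 to -0.17 (adjusted p = 0.0885). Il6st, gp130 itself, read 12.20, 12.30 and 12.28 in DKO and 12.17, 12.41 and 12.27 in ApoE-KO, a difference of -0.03 with an interval from -0.22 to 0.17. Il6ra, the interleukin-6 binding chain, differed by -0.15.

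Tlr2, which senses bacterial lipopeptides, was one of 3 genes higher in DKO in all pairs. It read 8.74, 8.65 and 8.79 in DKO, against 8.69, 8.45 and 8.50 in ApoE-KO. ApoE-KO replicate 1 lay above DKO replicate 2, so the groups overlapped (difference 0.18, limma, adjusted p = 0.862, and 0.285 in the paired fit). Tlr4, the lipopolysaccharide receptor, differed by 0.06 with a 95% interval from -0.27 to 0.39.

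The NF-κB genes and Myd88 had the narrowest range of differences of the 4 groups. Over the 7 measured, differences ran from -0.05 to 0.12 with a median of -0.02, and 0 had an unadjusted p under 0.05 in either fit. Rela, the p65 subunit that carries most NF-κB activation, read 11.06, 11.41 and 11.26 in DKO, against 11.05, 11.51 and 11.29 in ApoE-KO. Replicate 1 was lowest and replicate 2 highest in both groups, and the pairs of Rela differed by 0.01, -0.10 and -0.04. Nfkb2 and Relb, the subunits of the alternative pathway, each differed by -0.05. Myd88, the adaptor of most TLRs, differed by 0.07.

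Nfkbia, Tnfaip3 and Nfkbiz are inhibitors or modulators of the pathway that NF-κB itself induces, and 0 of them passed the test. Nfkbia, which encodes IκBα, was 10.26, 10.56 and 10.71 in DKO, against 10.66, 10.64 and 10.29 in ApoE-KO. Its pairs ran from -0.40 in pair 1 to 0.42 in pair 3, with a group difference of -0.02. Tnfaip3, the ubiquitin-editing enzyme A20 that ends NF-κB signalling, and Nfkbiz, a nuclear IκB protein, were each higher in DKO in all 3 pairs, with differences of 0.12 and 0.09 (limma, adjusted p = 0.932 and 0.939).

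Socs3, the STAT3-induced inhibitor of gp130 signalling, had the clearest separation of the effectors. It read 8.43, 8.43 and 8.34 in DKO, against 8.86, 9.18 and 8.54 in ApoE-KO. All DKO arrays lay below all ApoE-KO arrays, and the pairs differed by -0.43, -0.75 and -0.21. The difference was -0.46 (95% interval -0.83 to -0.09, limma, adjusted p = 0.861, and 0.129 in the paired fit). A second probe set for Socs3 gave a difference of -0.11 with overlapping groups, also lower in DKO in all 3 pairs. Socs3, Tnfrsf1a and Lif were the 3 genes of the 33 whose groups did not overlap, all lower in DKO, or 9.09% against 6.47% of all probe sets.

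Ptgs2, the inducible cyclooxygenase, and Nos2, the inducible nitric oxide synthase, changed sign between pairs. The pairs of Ptgs2 stood at -0.63, 0.20 and 0.53. Nos2 read 7.36, 7.20 and 7.26 in DKO, against 7.81, 7.31 and 6.99 in ApoE-KO, so the spread lay among the ApoE-KO arrays. Nlrp3, the inflammasome sensor, and Casp1, the protease it activates, each differed by 0.03.

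**Figure D2:**
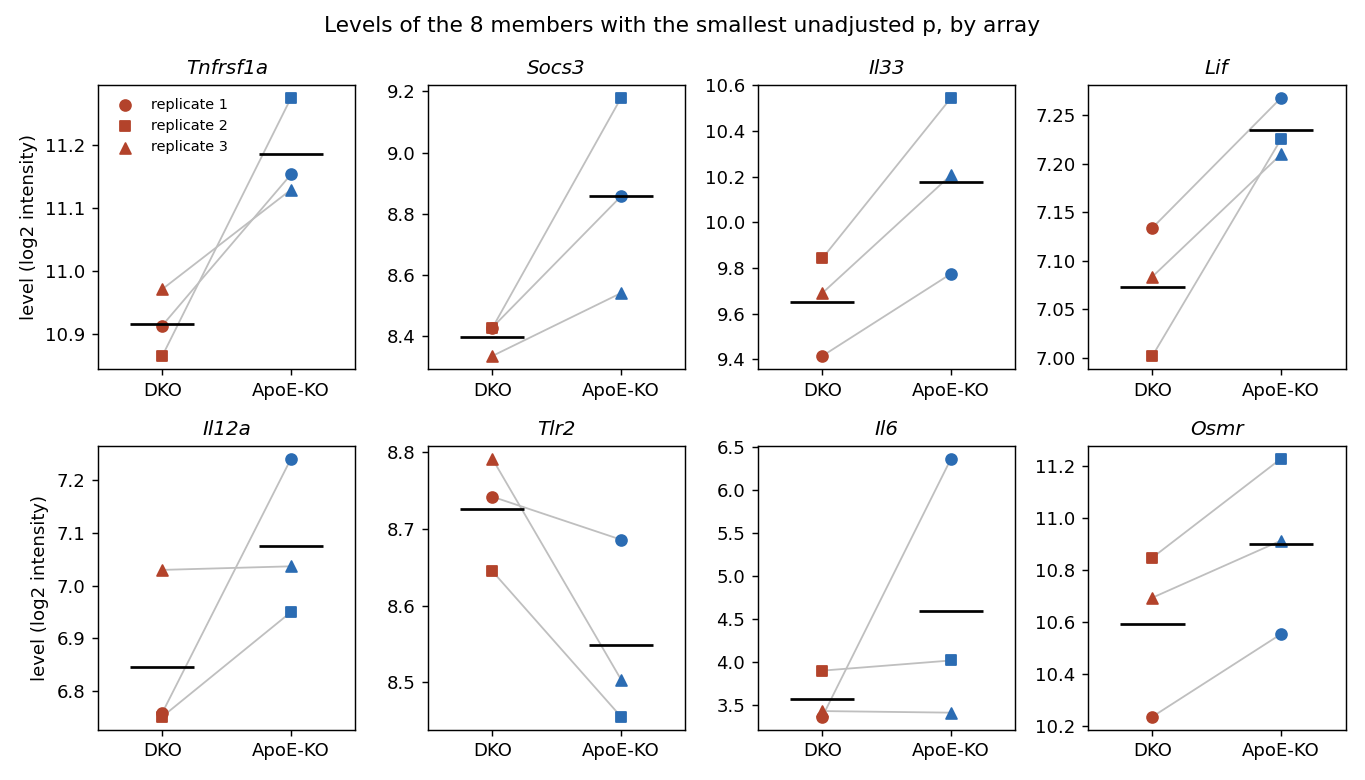
Level on each array (y axis, log2 intensity, with its own range for each gene) in DKO and ApoE-KO for the 8 genes with the smallest unadjusted p. Symbols mark replicate numbers, grey lines join same-numbered arrays and black bars are group means; Il33 and Osmr keep the order of replicates 1, 3 and 2 in both groups, and 1 ApoE-KO array sets the Il6 mean.

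All 3 pairs were lower in DKO for 6 of the 33 genes (Il33, Lif, Il12a, Osmr, Tnfrsf1a and Socs3), or 18.2% against 19.1% of all probe sets. They were higher for 3 (Tlr2, Nfkbiz and Tnfaip3), or 9.09% against 21.2%.

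The direction depended on the pair of arrays. In pair 1, 26 of the 33 genes were lower in DKO, or 78.8% against 50.1% of all probe sets, with a median of -0.15. Pair 2 had 18 lower, or 54.5% against 52.4%, and a median of -0.04. Pair 3 had 13 lower, or 39.4% against 45.5%, and a median of 0.04. By role, pair 1 was lower in 13 of 14 cytokines, 5 of 5 effectors, 4 of 7 receptors and 4 of 7 NF-κB genes. Its medians there were -0.17, -0.43, -0.24 and -0.07, the lowest of the 3 pairs in each role. DKO replicate 1 was the lowest of the 6 arrays for 15 of the 33 genes and the highest for 1, and its mean deviation from the genes' own means was -0.17. How many of all probe sets were lowest or highest on each array was not counted. Without this array the median difference was 0.0057.

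**Figure D3:**
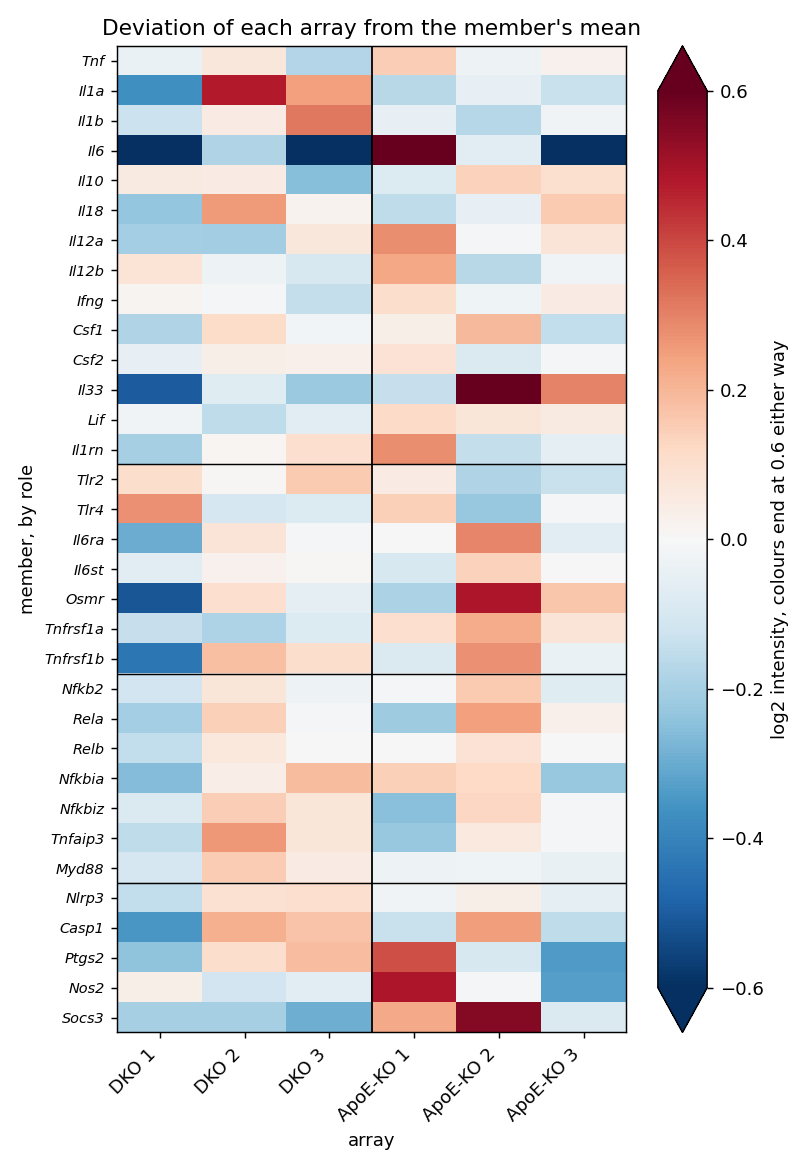
Deviation of each array from the gene's mean over the 6 arrays (colour, log2 intensity) for the 33 genes down the page, with DKO arrays left of the line and ApoE-KO arrays right of it. DKO replicate 1 is the lowest array for 15 genes, and ApoE-KO replicates 1 and 2 are the highest for 10 and 13, with no such count made over all probe sets.

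Macrophage markers shared the low DKO replicate 1. The list of 14 genes, all measured, had a mean level of 8.90, 9.75 and 9.47 in DKO, against 9.35, 9.50 and 9.36 in ApoE-KO, and 12 of the 14 were lowest in DKO replicate 1. Their median difference was -0.46 in pair 1, 0.27 in pair 2 and 0.15 in pair 3. Lyz2, the macrophage lysozyme, read 11.43, 12.81 and 12.44 in DKO and 12.34, 12.35 and 12.36 in ApoE-KO. Mean levels of the neutrophil and monocyte, lymphocyte, mast cell and adventitial fibroblast lists were also lowest in DKO replicate 1. So were those of the white adipose, lung epithelium and nerve lists, but not of smooth muscle, endothelium and mesothelium. Of the 10 white adipose genes 9 were lowest there. Lymphocyte markers (12 of 13 measured) had median differences of -0.10, 0.10 and 0.06 in pairs 1 to 3. The part of any of these cell types in the members' values was not tested. Neutrophil and monocyte markers (10 of 11 measured) lay between 6.33 and 6.55 in DKO and between 6.40 and 6.59 in ApoE-KO.

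**Figure D4:**
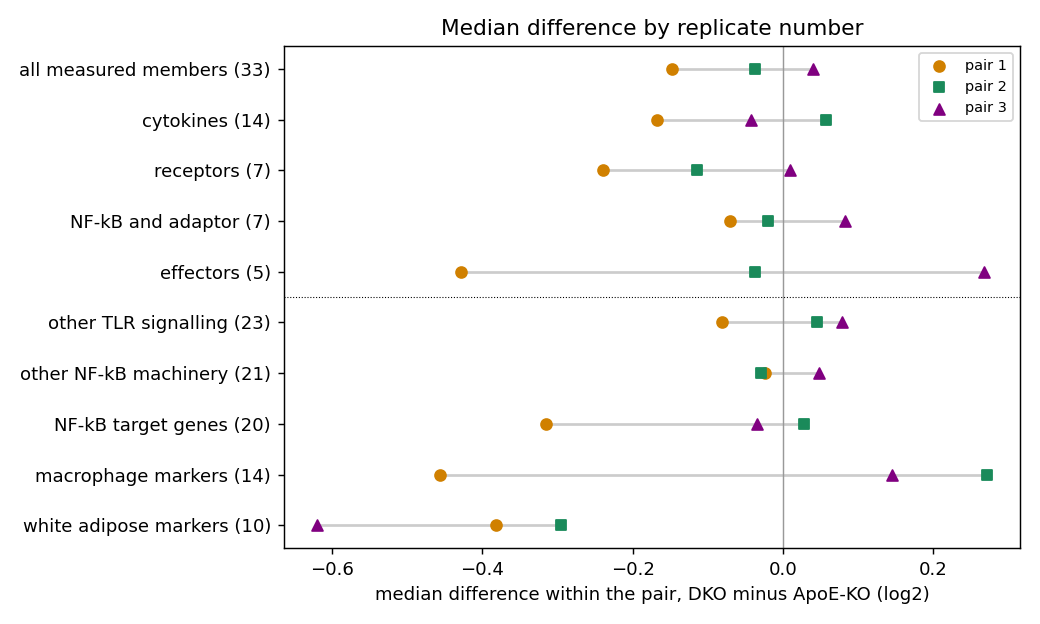
Median difference within each pair (x axis, DKO minus ApoE-KO, log2) for the 33 genes, their 4 role groups and 5 further gene lists, with the number of measured genes in brackets. Pair 1 is the lowest of the 3 for all 33 genes (-0.15), for each role group (-0.43 in effectors) and for macrophage markers (-0.46). White adipose markers are below 0 in all 3 pairs.

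Replicates stood in the same order in both groups for 9 of the 33 genes, or 27.3% against 34.2% of all probe sets. For 8 of the 9 that order was 1, 3, 2 from low to high, or 24.2% of the 33 against 6.15% of all probe sets, a pattern picked after the values were seen. The 8 were Il1a, Il33, Il6st, Osmr, Tnfrsf1b, Rela, Nfkbiz and Tnfaip3. Of these, Rela spread by 0.35 over the DKO arrays and 0.46 over the ApoE-KO arrays while its group means differed by -0.04.

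As a check of the tissue, Acta2 and Myh11, which mark smooth muscle, read 14.01 to 14.04 and 13.32 to 13.61 in DKO, against 13.97 to 14.06 and 13.23 to 13.55 in ApoE-KO. Lung epithelium genes stood high in both replicate 3 arrays, at a list mean of 9.06 in DKO and 9.66 in ApoE-KO, where the other arrays lay between 6.48 and 6.58. Without both replicate 3 arrays 0 of the 33 genes passed unpaired, where 0 of all 25254 probe sets passed. With pairing 0 of the 33 passed, where 48 of all probe sets did. The median difference of the 33 was then -0.08. The part of lung tissue in the members' values was not tested.

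Of 124 further pathway genes outside the list, 115 were measured and 0 passed without pairing. At an unadjusted p under 0.05 there were 9, or 7.83% against 5.62% of all probe sets, 7 lower and 2 higher in DKO. The median difference of the 115 genes was -0.03. Of 25 further TLR signalling genes 23 were measured. Ly96, the MD-2 partner of TLR4, was higher in DKO in all 3 pairs (difference 0.38, 95% interval 0.05 to 0.71), and Irak1, a kinase downstream of MyD88, was lower in all 3 (-0.24, interval -0.46 to -0.03). Lbp, which delivers lipopolysaccharide to CD14, differed by -0.30.

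Bcl3, an atypical nuclear IκB protein, had the smallest p among 21 measured genes of the NF-κB machinery in the paired fit. Without pairing Nod1 came before it. It read 8.92, 9.43 and 9.13 in DKO, against 9.35, 9.97 and 9.58 in ApoE-KO. The pairs differed by -0.44, -0.54 and -0.44, more evenly than the arrays of either group among themselves, and the paired fit left it just outside the threshold (difference -0.47, limma, adjusted p = 0.0503, and 0.861 without pairing). Nod1, a cytosolic sensor of bacterial peptidoglycan, differed by -0.35 and Traf5, a TNF receptor adaptor, by 0.22.

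Among 39 measured cytokine and receptor genes outside the list, Il1r2, the interleukin-1 decoy receptor, differed by 0.17, Tgfb1 by 0.24 and Lta, which encodes lymphotoxin-α, by -0.23. In the inflammasome and prostanoid list (12 of 13 measured), Ptges, the inducible prostaglandin E synthase that works with Ptgs2, was lower in DKO in all 3 pairs, by -0.35, -0.53 and -0.29 (limma, adjusted p = 0.862, and 0.0866 in the paired fit). Nlrc4 differed by -0.19 and Alox5, the leukotriene-forming lipoxygenase, by -0.20. In the paired fit, which passed 0.174% of all probe sets, 1 of 20 measured NF-κB target genes passed. This was Mmp3, the matrix protease stromelysin, which read 10.29, 10.88 and 10.72 in DKO, against 11.40, 11.88 and 11.55 in ApoE-KO, and fell by 0.98 (limma, adjusted p = 0.0166, and 0.581 without pairing). The call was lost without both replicate 2 arrays and in the ordinary linear model with pairing, where 0 probe sets passed. Mmp3, Bcl3 and Ptges also had replicates in the order 1, 3, 2 in both groups, as did 6.15% of all probe sets. The white adipose, mast cell and macrophage lists had that order too, and their part in these values was not tested. Ccl7 and Ccl2, both monocyte chemokines, differed by -0.46 and -0.34 (limma, paired adjusted p = 0.0653 and 0.190). The median of that list was -0.07, with -0.32 in pair 1, 0.03 in pair 2 and -0.03 in pair 3.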

How the data were processed

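RNA from 6 mouse aortas was read on Affymetrix whole-transcript arrays, 1 per sample. The authors deposited log2 intensities for 25254 probe sets, made with RMA and Partek on build mm9 per the submitters' processing notes, which give no versions. Per the series text, the authors' ANOVA also held array batch as a factor, but no source used here says whether the deposited values were corrected for it. The 6 array medians ranged between 8.01 and 8.02, and correlations between arrays from 0.983 to 0.995. The number of arrays limits the precision.

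The platform annotation names 1 gene for 21496 probe sets, several for 1565 and none for 2193. The fit ran over all probe sets with lmFit and eBayes (intensity trend) of limma 3.58.1 under R 4.3.3, as DKO minus ApoE-KO, two-sided, with Benjamini-Hochberg adjustment over all of them at 0.05 and no filter. The labels name no batch, so the unpaired fit came first. Same-numbered arrays had deviations from their group means that correlated at 0.60, 0.50 and 0.64 over all probe sets, and the numbers were therefore treated as pairs in a second fit. Unlike-numbered arrays correlated from -0.53 to -0.10. These values do not show that the arrays were paired in the experiment, and the source of the likeness was not tested. Promoter windows are RefSeq's. Members and lists were chosen with earlier results of these data known. All 33 genes are named, with all 6 arrays for the 8 smallest p in either fit, the 6 highest levels and the 4 widest ranges within a group, and up to 3 genes per further list by smallest p.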

Additional observations from a re-analysis of the deposited data

How the results depend on the processing

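Without pairing, 0 of the 33 genes passed under any alternative: dropping probe sets whose mean lay under the 40th or 60th percentile (which left 18 and 16 of the 33), normalizing by quantiles, centring arrays on their medians, moderating variances robustly or with no intensity trend, weighting arrays, keeping probe sets of a single gene, or omitting any array. Of all probe sets 0 passed in these unpaired settings too, except for 8 without DKO replicate 3. The 0 among the 33 genes therefore says little about these genes in particular. An ordinary linear model with the replicate block passed 0 of the 33 and 0 of all probe sets. The pairing (replicate block) passed 44 probe sets and 0 of the 33 genes. In the same fit 415 probe sets and 1 of the 33, Il33, passed without both replicate 1 arrays, 0 probe sets without both replicate 2 arrays, and 48 probe sets and 0 of the 33 without both replicate 3 arrays. The cause was not tested. Omitting both replicate 3 arrays without the block was chosen after seeing the data and passed 0 probe sets, with the same differences. With 1 array left out, passing probe sets numbered 0 to 8. Genes without overlap then numbered 4 to 8 against 3, and fewer arrays leave fewer values to overlap. The share of all probe sets without overlap was not computed for these settings, so these counts show nothing particular to the 33 genes. The median difference was lowest, -0.090, when DKO replicate 2 was omitted and highest, 0.0057, when DKO replicate 1 was.

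Differences kept their sign without any 1 array for 15 of the 33 genes, among them the 8 described by smallest p: Il33 from -0.73 to -0.34, Socs3 from -0.62 to -0.30, Tnfrsf1a from -0.30 to -0.22, Osmr from -0.48 to -0.13, Lif from -0.19 to -0.13, Il12a from -0.32 to -0.15, Tlr2 from 0.13 to 0.25 and Il6 from -1.62 to -0.15. The other 7 ran from -0.15 to -0.034 for Tnf, 0.055 to 0.48 for Il1a, 0.04 to 0.26 for Il1b, -0.12 to -0.039 for Ifng, -0.23 to -0.039 for Il6ra, 0.02 to 0.23 for Tnfaip3 and 0.0079 to 0.13 for Myd88. The remaining 18 changed sign, with these lowest and highest values: Csf1 -0.14 to 0.026, Il1rn -0.14 to 0.068, Tlr4 -0.062 to 0.15, Il6st -0.081 to 0.038, Tnfrsf1b -0.21 to 0.092, Rela -0.16 to 0.070, Relb -0.10 to 0.0057, Nfkbia -0.14 to 0.10, Il18 -0.090 to 0.15, Csf2 -0.033 to 0.053, Nlrp3 -0.015 to 0.11, Casp1 -0.075 to 0.21, Ptgs2 -0.13 to 0.23, Il10 -0.17 to 0.0024, Il12b -0.12 to 0.078, Nfkbiz -0.011 to 0.18, Nos2 -0.29 to 0.12, Nfkb2 -0.10 to 0.017. Signs also turned after quantile normalization (Il12b 0.0092, Ptgs2 -0.015), with array weights (Il12b 0.017, Il1rn 0.057, Nfkbia 0.029), and without both arrays of replicate 1 (Il12b 0.029, Csf1 0.023, Il1rn 0.15, Tnfrsf1b 0.025, Nfkbia 0.17, Nos2 0.081), of replicate 2 (Il18 -0.11, Csf2 -0.048, Il6st 0.019, Nfkbia 0.0076, Ptgs2 -0.052) or of replicate 3 (Il10 0.025, Csf2 -0.0067, Nlrp3 -0.036, Casp1 -0.13, Ptgs2 -0.22). None of these genes passed under the setting that turned its sign.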
